A study of Mus musculus with 30 samples.

Results

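The genes described here are those of the BMP and TGF-beta signalling pathway and the Id family: the secreted ligands, their latent binding proteins and antagonists, the receptors, the Smads, the Smad corepressors Ski and Skil, and Id1 to Id4. They were matched by gene symbol, and the names to match were chosen with earlier results of these data known. This gave 131 probe sets of 63 genes among the 45265 probe sets on the arrays. Of the 63 genes, 48, with 75 probe sets, were bright enough to be tested. Bmp1, a protease that cleaves procollagen and chordin, and Bmp2k, a kinase, share the symbol of the ligands but are not ligands, and are given apart.

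Gene expression was measured in mouse neurospheres, floating clusters of neural precursors, from the ventral forebrain of embryonic day 14 mice, kept for 7 days in DMEM:F12 with the N2 and B27 supplements. The EGF neurospheres (6 RNA samples) had epidermal growth factor and came from the ganglionic eminences, medial and lateral. Neurospheres given PDGF-AA together with neurotrophin-3 (NT-3 neurospheres, 3 samples) and those with PDGF-AA alone (PDGF neurospheres, 6 samples) came from the anterior entopeduncular area, so growth factor and brain region differ together wherever EGF is compared. PDGF-AA was at 100 ng/ml in the PDGF samples per the labels, which state 100 ng/ul for each factor in the NT-3 samples; that unit was not verified. EGF is named in the titles, descriptions and purification protocol of the EGF samples, whose growth protocol mentions PDGF-AA as well. The labels do not state the mouse strain, the number of embryos or whether replicates were separate cultures, so p-values measure only how far these samples spread, which may be technical.

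Each RNA sample was hybridised to a MOE430A and a MOE430B array, which carry different probe sets, and 13882 genes were tested. The neural precursor markers Nes, Sox2, Vim and Fabp7 all passed the filter on low signal, and their summed signal ranged over 86078 to 122962 in EGF neurospheres, 116672 to 141558 in NT-3 neurospheres and 77142 to 101057 in PDGF neurospheres. The NT-3 arrays shared no fluidics run with the others, so the run and the addition of NT-3 cannot be told apart. Their RNA also had a higher log2 ratio of 3' to 5' Actb signal, with a mean of 3.51 ± 0.27 in NT-3, 2.98 ± 0.33 in EGF and 3.00 ± 0.23 in PDGF samples (SD, n = 3, 6 and 6) on MOE430A. On MOE430B the Gapdh ratio was 4.104 to 4.205 in NT-3, 3.469 to 3.813 in EGF and 3.28 to 3.971 in PDGF samples. The Gapdh ranges overlapped on MOE430A. RNA was listed at 171 to 287 ng/ul in NT-3 samples and at 100 ng/ul in all others. The part of RNA quality in the results was not tested. EGF and PDGF arrays were spread over 3 runs with 2 samples of each. Because the tissue was measured in bulk, fewer cells of a type and less RNA per cell cannot be told apart in any result below.

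BMP ligands bind a pair of type I and type II receptors, which phosphorylate Smad1, Smad5 and Smad9. TGF-beta and activin ligands act through their own receptors on Smad2 and Smad3, and Smad4 is the partner of both branches in the complexes that act on genes. Id genes are classical targets of BMP signalling. Their proteins lack a DNA-binding region and hold E proteins away from partners such as Olig1 and Olig2, and in the forebrain BMP signalling is known for favouring astrocytes over oligodendrocytes and neurons.

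The Id genes are the pathway's best-known targets, and the promoters of the 3 that passed the test in any comparison are printed here so that their Smad elements can be read beside the values, from 250 bases before to 50 after the gene start (RefSeq, assembly GRCm38.p6). Id2 lies at chr12:25096043-25096342 on the minus strand, Id3 at chr4:136143572-136143871 on the plus strand and Id4 at chr13:48260866-48261165 on the plus strand. Each is written 5′ to 3′ along the gene's strand, with capitals for GGCGCC, a GC-rich Smad element known from BMP-responsive genes, and for GTCT or AGAC, the short Smad element read on either strand.
Id2: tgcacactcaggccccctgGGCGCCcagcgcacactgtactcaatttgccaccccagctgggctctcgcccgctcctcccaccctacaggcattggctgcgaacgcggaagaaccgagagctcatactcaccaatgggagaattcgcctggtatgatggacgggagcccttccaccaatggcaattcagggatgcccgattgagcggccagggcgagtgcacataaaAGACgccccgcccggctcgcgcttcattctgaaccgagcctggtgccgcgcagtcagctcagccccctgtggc
Id3: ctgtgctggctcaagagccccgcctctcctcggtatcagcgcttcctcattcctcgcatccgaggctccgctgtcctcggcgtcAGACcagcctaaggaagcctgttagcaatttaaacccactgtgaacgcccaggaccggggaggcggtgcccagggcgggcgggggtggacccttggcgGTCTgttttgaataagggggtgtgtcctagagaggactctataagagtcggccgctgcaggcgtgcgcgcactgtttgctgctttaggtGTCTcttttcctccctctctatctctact
Id4: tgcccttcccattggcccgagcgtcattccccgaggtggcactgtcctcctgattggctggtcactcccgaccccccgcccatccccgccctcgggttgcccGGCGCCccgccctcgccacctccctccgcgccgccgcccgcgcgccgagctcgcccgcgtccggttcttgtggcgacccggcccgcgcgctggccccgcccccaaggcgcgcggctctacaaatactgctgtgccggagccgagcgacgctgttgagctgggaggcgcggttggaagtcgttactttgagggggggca
GGCGCC stood in the Id2 promoter, 231 bases before the start, and in the Id4 promoter, 148 bases before it, and did not match in that of Id3. It was found in 11.87% of the 32851 promoters in the same table. GTCT matched 3 times in Id3, at 166 and 68 bases before the start and 22 after it, matched in Id2 at 23 bases before the start, and had no match in Id4. A match is a description, not a site, and 87.98% of all promoters hold GTCT. The E-box CANNTG, the site of E proteins and their partners, matched in Id2 and in neither Id3 nor Id4, against 72.31% of all promoters. The GC content was 63.3% in Id2, 60% in Id3 and 73.3% in Id4.

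In EGF against PDGF neurospheres, the BMP type I receptor Bmpr1b, the BMP target Id3, the secreted glycoprotein Fstl1 and the TGF-beta effector Smad3 were higher with EGF by 1.17 to 3.14 on the log2 scale. Id2, the ligand Bmp7 and the activin receptor Acvr1b were lower with EGF by log2 differences of -1.10, -0.91 and -0.61. In all, 5 of the 48 genes were higher, where 6.5% of all genes tested were called higher, and 3 were lower, where 6.52% of all genes were called lower. A gene was called when its limma p was below 0.05 after Benjamini-Hochberg adjustment over the 13882 genes. The share of the pathway that was called, 16.7%, is near the 13% of all genes, and its median log2 difference of -0.03 is near the -0.04 of all genes. Of the 5 higher genes, 2 (Bmpr1b and Fstl1) had a PDGF mean under the median signal of their chip, as had 16.4% of all genes called higher.

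In NT-3 against PDGF neurospheres, the ligands Tgfb1, Bmp4, Bmp5 and Gdf9, the BMP effector Smad1, the coreceptor Tgfbr3, Acvr1b and Id4 were lower with NT-3, and Ski, Bmpr1b and Fstl1 were higher. The probe set that stands for Smad5, another BMP effector, was also called lower, but its second probe set was called higher. No direction is therefore given for that gene in this comparison. For Smad1 and Ski the brighter of 2 probe sets gave -0.20 and 0.21 and was not called. With Smad5 by its chosen probe set, 9 genes were called lower, where 13.8% of all genes were called lower, and 3 were called higher, where 7.43% of all genes were. The pathway's called share was 25%, against 21.2% of all genes, and both medians were -0.13. Many of these genes were dim: in 6 of the 9 that were lower, the NT-3 mean lay under the median signal of its chip, as it did in 35.8% of all genes called lower. All 3 genes that were higher were dim in the same way in PDGF neurospheres, against 12.1% of all genes called higher.

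In EGF against NT-3 neurospheres, 12 of the 48 genes were higher with EGF, where 14.1% of all genes were called higher, and 5 were lower, where 8.35% were called lower. Tgfb1, Id3, Smad5, Bmp5, Bmpr1b, Tgfbr3, Ltbp4, Gdf9, Id4, Bmp2k, Smad3 and Smad1 were the higher ones, and Ski, Id2, Bmp7, Chrdl1 and Smad4 the lower ones. For Smad1 and Ski the brighter of 2 probe sets gave 0.06 and -0.22 and was not called. The called share was 35.4%, against 22.5% of all genes, and the median log2 difference 0.43, against 0.11 for all genes. The 3 comparisons share samples and are not independent of each other. The plot of log2 differences shows the 21 genes called in at least 1 of them.

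**Figure D1:**
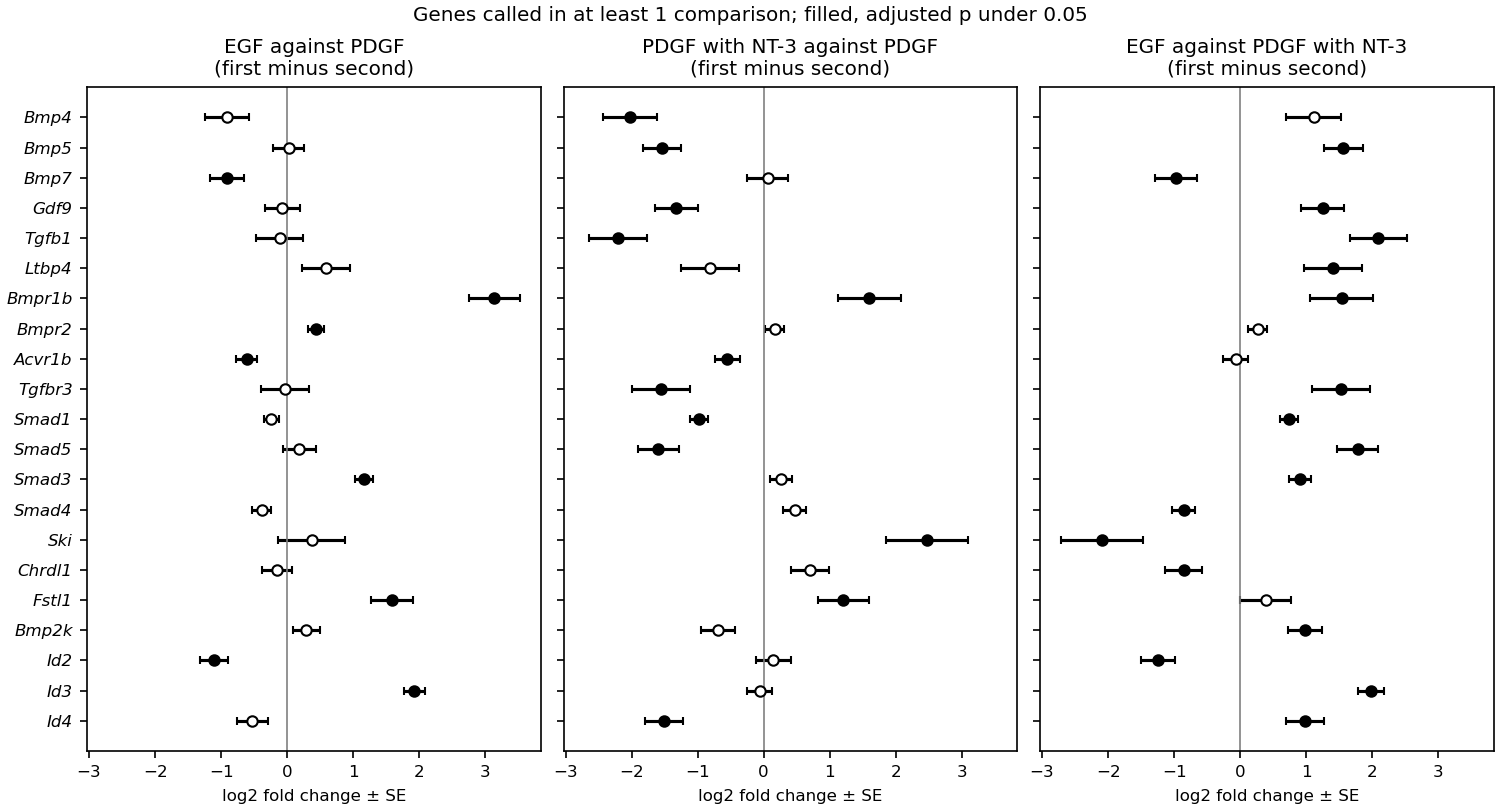
Log2 differences ± SE (x axis) of the 21 genes called in at least 1 comparison, filled where called, for EGF against PDGF, PDGF with NT-3 against PDGF, and EGF against PDGF with NT-3 neurospheres. Bmpr1b is the only gene called in all 3, with its largest difference, 3.14, in EGF against PDGF.

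Among the Id genes, Id3 separated the EGF neurospheres from the rest. Its signal had a lowest, median and highest value of 3339, 3851 and 4173 in EGF neurospheres, was 715, 889 and 1228 in the 3 NT-3 samples, and was 769, 1020 and 1159 in PDGF neurospheres. Every EGF sample lay above every other sample, and the NT-3 and PDGF ranges overlapped. The log2 difference was 1.92 ± 0.16 (SE) for EGF against PDGF, a 3.79-fold higher level (limma adjusted p = 2.54e-07), and 1.98 ± 0.19 for EGF against NT-3 (adjusted p = 2.21e-06). Within the 3 fluidics runs that held both conditions, EGF minus PDGF ranged from 1.71 to 2.05. For NT-3 against PDGF the Id3 difference was -0.06 (adjusted p = 0.861).

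Id2, known for holding back oligodendrocyte differentiation, had the opposite order. Its signal had a lowest, median and highest value of 774, 1255 and 1954 in EGF neurospheres, was 2727, 3071 and 3313 in the NT-3 samples, and was 1730, 2845 and 3618 in PDGF neurospheres. All EGF samples lay under the NT-3 samples, and the highest EGF sample overlapped the lowest PDGF sample. The log2 difference was -1.10 ± 0.21 for EGF against PDGF (limma adjusted p = 0.00167) and -1.25 ± 0.26 for EGF against NT-3 (adjusted p = 0.00234). A second Id2 probe set gave -1.02 ± 0.28 for EGF against PDGF (adjusted p = 0.024 over the 23595 probe sets tested) and -0.64 for EGF against NT-3, which was not called (adjusted p = 0.2).

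Id4, which also holds back oligodendrocyte differentiation, was low in NT-3 neurospheres. Its signal had a lowest, median and highest value of 1907, 2677 and 3445 in EGF neurospheres and 2734, 3688 and 5297 in PDGF neurospheres. The NT-3 samples were at 1091, 2431 and 764, in replicate order. NT-3 and PDGF samples did not overlap, while the highest NT-3 sample lay among the EGF samples. Id4 was lower in NT-3 than in PDGF neurospheres by -1.51 ± 0.29 (limma adjusted p = 0.0019), and the other probe sets gave -1.22 (adjusted p = 0.00903) and -0.66 (adjusted p = 0.311). EGF against NT-3 gave 0.99 ± 0.29 (adjusted p = 0.0218), a call lost without NT-3 replicate 1 (adjusted p = 0.0854) or NT-3 replicate 3 (0.64, adjusted p = 0.147). EGF against PDGF gave -0.53 ± 0.24 and was not called (adjusted p = 0.182), though it was with array weights (-0.61, adjusted p = 0.0466). The 3 Id4 probe sets ranged from -0.53 to 0.23 in that comparison, and none was called. For EGF against NT-3 they ranged from 0.85 to 0.99, and 1 was called.

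Id1, the member most often used as a readout of BMP signalling, passed in no comparison. Its signal was 517, 629 and 1079 (lowest, median and highest) in EGF neurospheres, 766, 201 and 316 in the NT-3 samples, and 210, 506 and 682 in PDGF neurospheres, with overlap between all groups. Its log2 difference was 0.62 for EGF against PDGF (limma adjusted p = 0.304), with a 95% interval of -0.13 to 1.37. That interval uses the 12 residual degrees of freedom and is a little wider than the limma test implies. The data leave room for a change as well as for none.

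**Figure D2:**
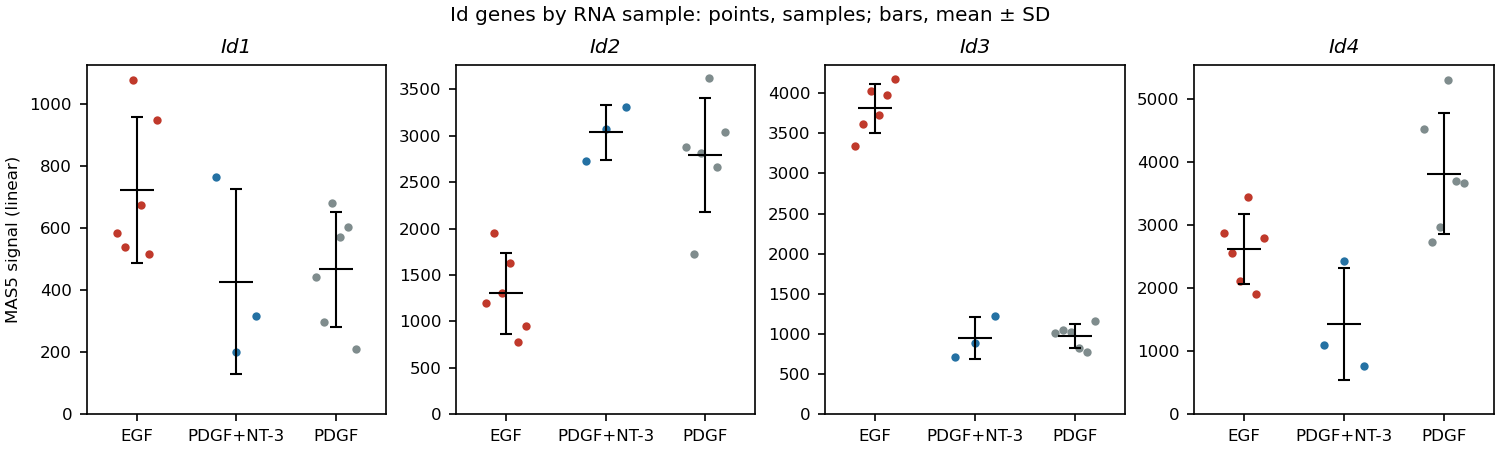
MAS5 signal (linear scale, y axis) of Id1, Id2, Id3 and Id4 in each RNA sample of the EGF, PDGF with NT-3 and PDGF neurospheres; points are samples, bars the mean and SD. The 6 EGF samples lie above all others for Id3, with a mean of 3811, and the 3 NT-3 samples lie under all PDGF samples for Id4.

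The genes of the whole table most like each Id gene were found by Pearson correlation of log2 signal over the 15 samples, which fall into 3 conditions, so that a high value mostly reflects the same order of conditions. Id3 was most like Pbxip1, Mlc1, Tnnt1, Pla2g7 and Idh3g (0.97 to 0.99), Id2 like Wdr6, Npdc1, Ccng2, Sox10 and Nap1l5 (0.90 to 0.93), and Id4 like Myt1l, Pcp4, Atp1b1, Ndrg4 and Vsnl1 (0.94 to 0.97). Id1 reached 0.89 with Padi6 and 0.81 to 0.82 with Fkbp3, Abl1, Cox15 and Gpr45. Id2 and Id3 ran against each other (-0.85).

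Markers of cell types moved between the same conditions. All 8 astrocyte markers were tested, and their summed signal ranged over 29368 to 45492 in EGF, 5370 to 6252 in NT-3 and 5243 to 10871 in PDGF neurospheres, highest in EGF neurospheres as Id3 was. Of the 8, 5 were higher in EGF than in PDGF neurospheres, S100b was lower (-1.31, limma adjusted p = 0.00142), and Aqp4 (1.09) and Gfap (0.44) were not called. The 6 oligodendrocyte progenitor markers, Sox10 among them, summed to 51049 to 70094 in EGF, 144565 to 172700 in NT-3 and 96182 to 125226 in PDGF neurospheres. Of these 6, 5 were lower in EGF than in PDGF neurospheres, and Olig2 (0.16) was not called. In NT-3 against PDGF neurospheres 3 of them were higher and 1 was lower. The 4 myelinating cell markers tested of 6 summed to 25399 to 40096 in EGF, 687 to 1325 in NT-3 and 15672 to 35947 in PDGF neurospheres, and the 6 neuron markers to 9510 to 21768, 11812 to 25194 and 21339 to 39391 in EGF, NT-3 and PDGF neurospheres. Of the markers of meninges and fibroblasts, 2 of 6 passed the filter, with sums of 763 to 1775 in EGF, 771 to 1939 in NT-3 and 1224 to 2059 in PDGF neurospheres. The 2 of 5 endothelium markers tested summed to 1226 to 2338 in EGF, 746 to 1281 in NT-3 and 1129 to 2115 in PDGF neurospheres, and the 2 of 3 choroid plexus markers to 1030 to 1775, 772 to 2559 and 979 to 2599. The 2 of 5 microglia markers summed to 1065 to 1802 in EGF, 701 to 1207 in NT-3 and 1410 to 2690 in PDGF neurospheres, with no overlap between NT-3 and PDGF. In each of these 4 lists 1 of the 2 markers tested was lower in NT-3 than in PDGF neurospheres, where 13.8% of all genes were called lower. These were Col1a2 by -1.79, Kdr by -1.54, Folr1 by -1.60 and Csf1r by -1.23 (limma adjusted p of 0.00221 to 0.0283). The other marker tested in each list (Dcn, Esam, Ttr and Ptprc) was not called in that comparison. The part of these cell types in the results for the pathway was not tested.

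Of the 11 receptors tested, Bmpr1b changed most. This type I BMP receptor had a lowest, median and highest signal of 4095, 5591 and 6256 in EGF neurospheres, was 1378, 1542 and 2450 in the NT-3 samples, and was 53.6, 554 and 1587 in PDGF neurospheres. All EGF samples lay above all others, while the NT-3 and PDGF ranges overlapped. It was 8.81-fold higher in EGF than in PDGF neurospheres (log2 difference 3.14 ± 0.39, limma adjusted p = 2.52e-05), with 2.55 to 3.77 within single fluidics runs. NT-3 against PDGF gave 1.60 ± 0.48 (adjusted p = 0.0244), which was lost without NT-3 replicate 3 (adjusted p = 0.103). EGF against NT-3 gave 1.54 ± 0.48 (adjusted p = 0.0276), which was lost without NT-3 replicate 1 (adjusted p = 0.0994) or NT-3 replicate 2 (adjusted p = 0.0815). The other Bmpr1b probe sets lay under the signal filter, and their means were highest in NT-3 neurospheres. A MOE430B probe set averaged 433 in EGF, 698 in NT-3 and 325 in PDGF neurospheres, and a MOE430A probe set 172, 309 and 101. The higher Bmpr1b in EGF than in NT-3 neurospheres therefore rests on the brightest probe set.

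The type II receptor Bmpr2 had a lowest, median and highest signal of 32546, 35934 and 40109 in EGF neurospheres, was at 39529, 24434 and 28478 in the NT-3 samples, and had 23807, 25718 and 33516 in PDGF neurospheres. EGF and PDGF ranges overlapped, and the difference was small (log2 0.43 ± 0.12, limma adjusted p = 0.0173). It was called in neither comparison with NT-3 neurospheres. Bmpr1a, another type I BMP receptor, averaged 3539 ± 587 in EGF, 3493 ± 761 in NT-3 and 3068 ± 400 in PDGF neurospheres (SD, n = 6, 3 and 6), with log2 differences of 0.03 to 0.20 and no call. Of its 5 probe sets tested, 1 was lower in NT-3 than in PDGF neurospheres (-1.13 ± 0.38, adjusted p = 0.0457). The higher Bmpr1b in EGF neurospheres stood beside a type II partner that differed by a small amount and beside the type I receptors Bmpr1a and Acvr1, for which no difference was called.

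Acvr1b, a type I receptor of activins, had a lowest, median and highest signal of 1177, 1653 and 1883 in EGF neurospheres, lay between 1515 and 1941 in the NT-3 samples, and had 2075, 2571 and 3024 in PDGF neurospheres. PDGF samples lay above all others (for EGF against PDGF, log2 -0.61 ± 0.15, limma adjusted p = 0.0108). A second Acvr1b probe set gave 0.02 and was not called (adjusted p = 0.994), and the call was lost with the mean of both (-0.30, adjusted p = 0.631) or with median centring (-0.57, adjusted p = 0.0520). NT-3 against PDGF gave -0.55 ± 0.19 (adjusted p = 0.0457), near the threshold: leaving out any of 7 libraries in turn lost the call. These were all 3 NT-3 replicates and PDGF replicates 1, 4, 5 and 6, with adjusted p of 0.0501 to 0.144. Tgfbr3, the TGF-beta coreceptor betaglycan, had a lowest, median and highest signal of 636, 795 and 1138 in EGF neurospheres, was at 78.6, 225 and 711 in the NT-3 samples, and had 461, 959 and 1276 in PDGF neurospheres. The highest NT-3 sample overlapped both other groups. Its log2 difference was -1.56 ± 0.44 for NT-3 against PDGF (adjusted p = 0.0187) and 1.53 ± 0.44 for EGF against NT-3 (adjusted p = 0.0186). Both calls were lost without NT-3 replicate 1 (-0.96 and 0.93, adjusted p = 0.13 and 0.137) or NT-3 replicate 2 (adjusted p = 0.0506 and 0.0554).

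The other receptors were called in no comparison. Among them Acvr2a averaged 1321 in EGF, 1264 in NT-3 and 1558 in PDGF neurospheres, and Tgfbr1, the type I TGF-beta receptor, 884 in EGF, 1219 in NT-3 and 1024 in PDGF neurospheres. Acvr1, a type I receptor of the BMP branch, averaged 1019, 518 and 1159 in EGF, NT-3 and PDGF neurospheres, a log2 difference of -0.97 for NT-3 against PDGF that was not called (limma adjusted p = 0.058).

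**Figure D3:**
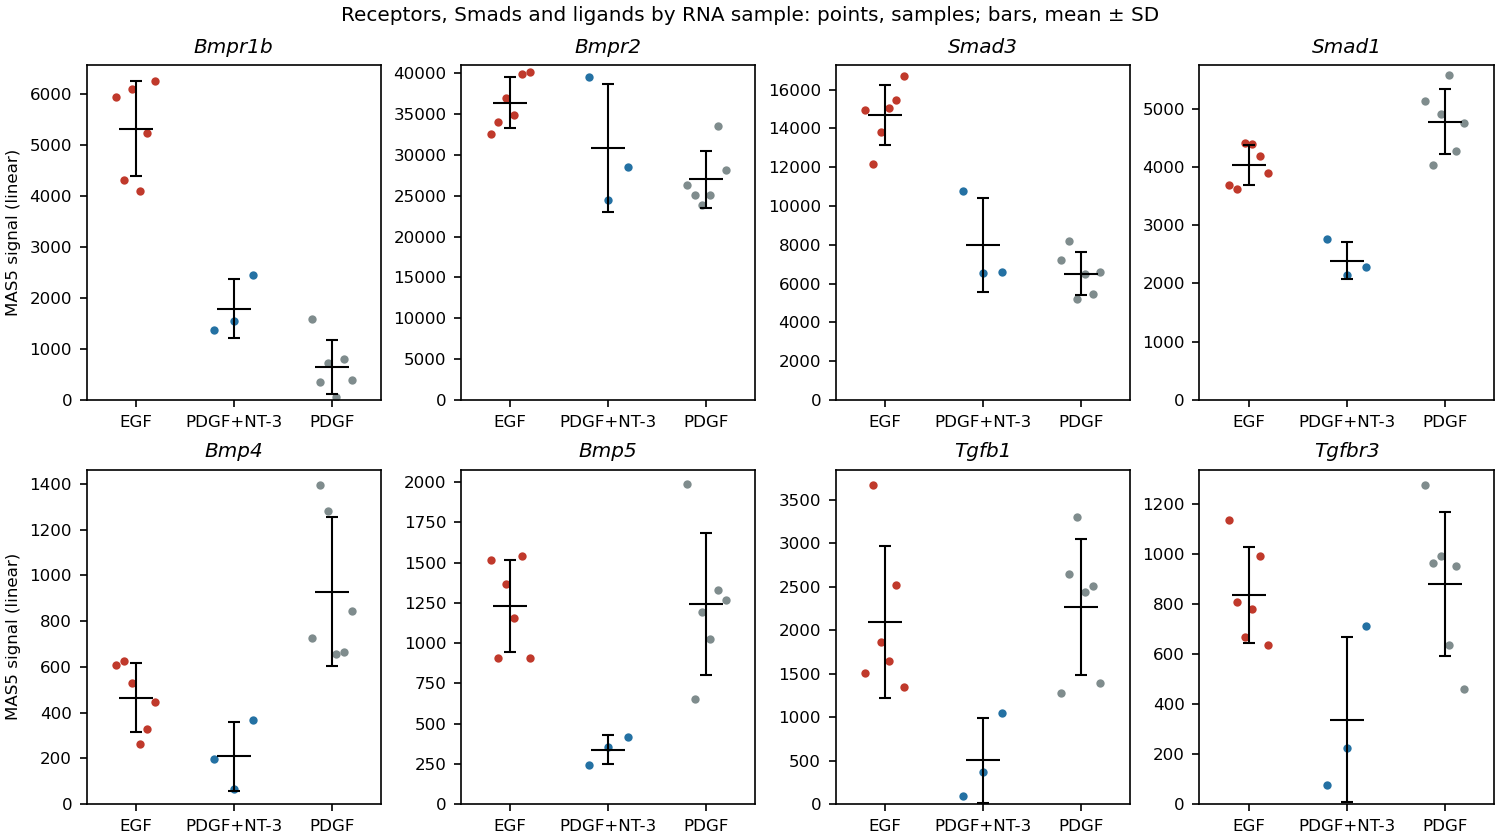
MAS5 signal (y axis) of Bmpr1b, Bmpr2, Smad3, Smad1, Bmp4, Bmp5, Tgfb1 and Tgfbr3 in each RNA sample of the EGF, PDGF with NT-3 and PDGF neurospheres; points are samples, bars the mean and SD. Bmpr1b and Smad3 are high in all 6 EGF samples, and Smad1, Bmp4 and Bmp5 are low in all 3 NT-3 samples against PDGF.

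Of the 7 Smads tested, Smad3, the effector of TGF-beta and activin, was higher in EGF neurospheres. Its signal had a lowest, median and highest value of 12152, 14999 and 16682 in EGF neurospheres, was 10781, 6560 and 6615 in the NT-3 samples, and had 5201, 6529 and 8176 in PDGF neurospheres. The EGF samples lay above all others. The log2 difference was 1.17 ± 0.14 for EGF against PDGF (limma adjusted p = 1.5e-05) and 0.90 ± 0.17 for EGF against NT-3 (adjusted p = 0.00103). Smad1, a BMP effector, had a lowest, median and highest signal of 3610, 4035 and 4404 in EGF neurospheres, was at 2753, 2149 and 2274 in the NT-3 samples, and had 4035, 4825 and 5567 in PDGF neurospheres. The NT-3 samples lay under all others, by a log2 difference of -0.98 ± 0.14 for NT-3 against PDGF (adjusted p = 0.000168), and EGF against NT-3 gave 0.74 ± 0.14 (adjusted p = 0.000881). A second Smad1 probe set gave -0.20 and 0.06 in these comparisons, neither of them called (adjusted p = 0.537 and 0.873), so the lower Smad1 holds for 1 of its 2 probe sets.

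Smad5, the other BMP effector tested, depended on the probe set. The MOE430A probe set had a lowest, median and highest signal of 909, 1393 and 1713 in EGF neurospheres, was at 178, 623 and 394 in the NT-3 samples, and had 937, 1178 and 1652 in PDGF neurospheres. The NT-3 samples lay under all others, with log2 differences of -1.60 ± 0.31 for NT-3 against PDGF (limma adjusted p = 0.0019) and 1.78 ± 0.31 for EGF against NT-3 (adjusted p = 0.00056). The MOE430B probe set of Smad5 lay between 15793 and 24270 in EGF neurospheres, was at 11209, 13481 and 14728 in the NT-3 samples, and lay between 5195 and 10999 in PDGF neurospheres, so no group overlapped another. That probe set was higher in NT-3 than in PDGF neurospheres (0.85 ± 0.18, adjusted p = 0.00423) and in EGF than in PDGF neurospheres (1.43 ± 0.15, adjusted p = 4.85e-06). No direction can be given for Smad5 in NT-3 against PDGF, because its probe sets passed the test with opposite signs. In EGF against NT-3 both of its 2 probe sets were called higher with EGF (0.58 and 1.78).

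Smad4, the partner of both branches, was lower in EGF neurospheres, with 5492, 8760 and 10480 (lowest, median and highest), than in NT-3 neurospheres, with 17725, 11599 and 16813, by -0.85 ± 0.17 (limma adjusted p = 0.00203). Its other 2 probe sets gave -0.31 and -0.34 and were not called. For Smad2, the chosen probe set differed in no comparison, while the MOE430B probe set averaged 3860 ± 721 in EGF, 4389 ± 1023 in NT-3 and 6691 ± 1317 in PDGF neurospheres, lower than PDGF by -0.77 ± 0.16 with EGF (adjusted p = 0.00359) and by -0.60 ± 0.20 with NT-3 (adjusted p = 0.0414). The chosen probe sets of the inhibitory Smad6 and Smad7 had means of 343 to 608 in all groups and were called in no comparison. A second Smad7 probe set gave 0.97 for EGF against PDGF, where the chosen one gave -0.26, and was not called either.

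Ski, which represses Smad targets, had a lowest, median and highest signal of 75.6, 546 and 1028 in EGF neurospheres, was at 2055, 1767 and 1690 in the NT-3 samples, and had 153, 265 and 686 in PDGF neurospheres. The NT-3 samples lay above all others (2.47 ± 0.62 for NT-3 against PDGF, limma adjusted p = 0.0101, and -2.09 ± 0.62 for EGF against NT-3, adjusted p = 0.0222). The second call was lost when any NT-3 replicate was left out (adjusted p = 0.0717 without replicate 1, 0.0554 without replicate 2 and 0.0517 without replicate 3). The brighter MOE430B probe set of Ski averaged 3549 ± 744 in EGF, 4145 ± 970 in NT-3 and 3554 ± 644 in PDGF neurospheres. It gave 0.21 for NT-3 against PDGF (adjusted p = 0.52) and -0.22 for EGF against NT-3, and was called in neither. The higher Ski with NT-3 therefore holds for 1 of its 2 probe sets. Skil averaged 2152 in EGF, 1842 in NT-3 and 2165 in PDGF neurospheres and was called in no comparison.

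**Figure D4:**
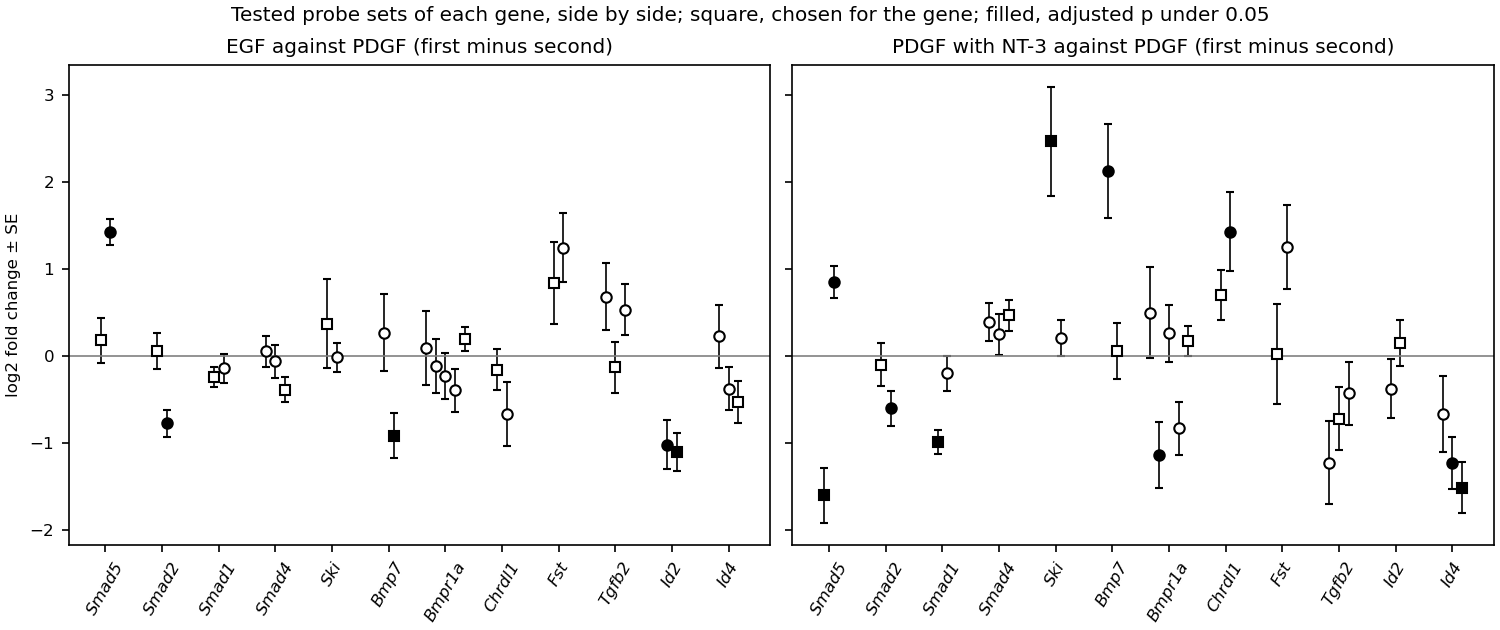
Log2 differences ± SE (y axis) of each tested probe set of 12 genes with several probe sets, for EGF against PDGF and PDGF with NT-3 against PDGF; squares are the probe sets that stand for the gene, and filled symbols were called. For Smad5 in PDGF with NT-3 against PDGF the probe sets lie at -1.60 and 0.85, on opposite sides of 0.

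Of the 4 BMP ligands tested, Bmp4 and Bmp5 were lower in NT-3 neurospheres and Bmp7 in EGF neurospheres. Bmp4 had a lowest, median and highest signal of 261, 488 and 626 in EGF neurospheres, was at 197, 65.4 and 367 in the NT-3 samples, and had 658, 786 and 1396 in PDGF neurospheres. The PDGF samples lay above all others (for NT-3 against PDGF, log2 -2.03 ± 0.41, limma adjusted p = 0.00278), but EGF against PDGF, at -0.91, was not called (adjusted p = 0.0908). Bmp5 had a lowest, median and highest signal of 907, 1263 and 1538 in EGF neurospheres, was at 242, 357 and 415 in the NT-3 samples, and had 653, 1232 and 1990 in PDGF neurospheres, and the NT-3 samples lay under all others (-1.54 ± 0.29 against PDGF, adjusted p = 0.00166, and 1.56 ± 0.29 for EGF against NT-3, adjusted p = 0.00102).

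Bmp7 had a lowest, median and highest signal of 380, 705 and 1281 in EGF neurospheres, was at 1351, 1739 and 1157 in the NT-3 samples, and had 1008, 1469 and 1674 in PDGF neurospheres. The highest EGF sample overlapped both other groups (for EGF against PDGF, log2 -0.91 ± 0.25, limma adjusted p = 0.0229). This call was lost without EGF replicate 1 or 6 or PDGF replicate 2, 4 or 5, with adjusted p of 0.0501 to 0.0550. EGF against NT-3 gave -0.97 ± 0.31 (adjusted p = 0.0329) and was lost without EGF replicate 1 or 6 or NT-3 replicate 1 or 2 (adjusted p of 0.0563 to 0.126). A dim second probe set gave 2.13 ± 0.54 for NT-3 against PDGF (adjusted p = 0.0117), where the first gave 0.06. In EGF against PDGF it gave 0.27, opposite in sign to the first and not called (adjusted p = 0.804), and with the mean of both the Bmp7 call was lost (-0.32, adjusted p = 0.584). Bmp8b averaged 899 in EGF, 839 in NT-3 and 1523 in PDGF neurospheres and was called in no comparison.

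Of the 4 GDF ligands, Gdf9, best known from the oocyte, averaged 1091 ± 345 in EGF, 419 ± 98.0 in NT-3 and 1173 ± 412 in PDGF neurospheres. NT-3 samples lay under all others (-1.32 ± 0.32 for NT-3 against PDGF, limma adjusted p = 0.00826, and 1.25 ± 0.32 for EGF against NT-3, adjusted p = 0.0101). Gdf2, Gdf3 and Gdf11 averaged 335 to 828.6 in all groups and were called in no comparison.

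Tgfb1, the founding ligand of the TGF-beta branch, had a lowest, median and highest signal of 1349, 1757 and 3668 in EGF neurospheres, was at 95.3, 368 and 1045 in the NT-3 samples, and had 1274, 2480 and 3309 in PDGF neurospheres. The NT-3 samples lay under all others (-2.21 ± 0.43 against PDGF, limma adjusted p = 0.00213, and 2.09 ± 0.43 for EGF against NT-3, adjusted p = 0.00224). Ltbp4, which stores latent TGF-beta in the matrix, had a lowest, median and highest signal of 1075, 1125 and 1420 in EGF neurospheres and was at 770, 727 and 111 in the NT-3 samples, with no overlap (1.40 ± 0.44, adjusted p = 0.03). Without NT-3 replicate 3 this was 0.64 (adjusted p = 0.217), and the call was also lost without EGF replicate 1 (adjusted p = 0.0503) or EGF replicate 5 (adjusted p = 0.0520). Ltbp3 averaged 2612 in EGF, 2089 in NT-3 and 2060 in PDGF neurospheres and was called in no comparison, nor was the chosen probe set of Tgfb2. The MOE430B probe set of Tgfb2 averaged 821 ± 180 in EGF and 135 ± 63.3 in NT-3 neurospheres (1.91, adjusted p = 0.00922).

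The activin subunit genes Inhba, Inhbb and Inhbc were called in no comparison, and Inhbb averaged 893 in EGF, 890 in NT-3 and 583 in PDGF neurospheres. Among the genes that share only the symbol of ligands, Bmp2k averaged 1976 ± 444 in EGF and 985 ± 433 in NT-3 neurospheres (0.98 ± 0.25, limma adjusted p = 0.00995). That call was lost without NT-3 replicate 2 (adjusted p = 0.0731). Bmp1 averaged 1434 in EGF, 563 in NT-3 and 742 in PDGF neurospheres and was called in no comparison.

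Of the 7 secreted antagonists and follistatin-family genes tested, Fstl1 and Chrdl1 were called. Fstl1, a secreted glycoprotein, had a lowest, median and highest signal of 613, 776 and 935 in EGF neurospheres, was 672, 461 and 604 in the NT-3 samples, and was 76.3, 265 and 366 in PDGF neurospheres. PDGF samples lay under all others. The log2 difference was 1.59 ± 0.32 for EGF against PDGF (limma adjusted p = 0.00207) and 1.21 ± 0.39 for NT-3 against PDGF (adjusted p = 0.0342). The call for NT-3 was lost without NT-3 replicate 1 or 3 or PDGF replicate 2 or 5 (adjusted p of 0.0505 to 0.113).

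Chrdl1, which binds BMP ligands outside the cell, averaged 851 ± 168 in EGF and 1626 ± 271 in NT-3 neurospheres (-0.86 ± 0.28, limma adjusted p = 0.037), a call lost when any of the NT-3 replicates or EGF replicate 1, 3 or 5 was left out (adjusted p of 0.0521 to 0.126). A second Chrdl1 probe set moved the same way and further, with 687 ± 464 in EGF, 2853 ± 205 in NT-3 and 1071 ± 483 in PDGF neurospheres. It gave -2.10 ± 0.45 for EGF against NT-3 (adjusted p = 0.0035) and 1.43 ± 0.45 for NT-3 against PDGF (adjusted p = 0.0355). Among the genes not called, Fstl5 averaged 1414 in EGF, 2259 in NT-3 and 1880 in PDGF neurospheres and Fstl4 819, 1266 and 828.5. Chordin itself (Chrd) averaged 457 in EGF, 246 in NT-3 and 526.1 in PDGF neurospheres. For follistatin (Fst), which binds activins, the MOE430B probe set averaged 1412 ± 676 in EGF, 1346 ± 653 in NT-3 and 506 ± 288 in PDGF neurospheres, just short of a call for EGF against PDGF (1.25 ± 0.39, adjusted p = 0.05001).

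**Figure D5:**
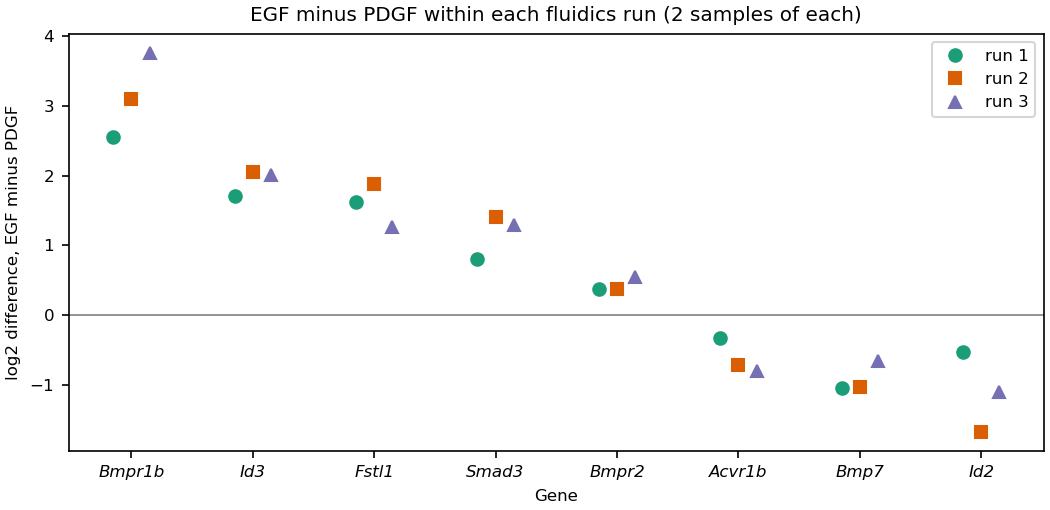
Log2 difference of EGF minus PDGF (y axis) for the 8 genes called in that comparison, within each of the 3 fluidics runs that held 2 samples of both conditions. Every gene kept its sign in all 3 runs.

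The calls for Bmpr1b, Bmpr2, Smad3, Bmp5, Tgfb1, Bmp2k and Chrdl1 come from a MOE430B probe set, since the MOE430A probe sets of these genes were under the signal filter, with array signals of 5.65 to 697. Without the filter those dim probe sets stand for the genes, and the calls of these 7 genes were not kept (adjusted p of 0.155 to 0.988). The 15 genes with every probe set under the filter were Acvr1c, Bmp10, Bmp15, Bmp2, Bmp6, Bmp8a, Fstl3, Gdf10, Gdf5, Inhbe, Ltbp1, Ltbp2, Nog, Smad9 and Tgfb3. Among them are the ligands Bmp2 and Bmp6, the antagonist noggin and the third BMP effector Smad9, and for these no level can be compared. Of the 75 probe sets of the pathway past the filter, 11 were called in EGF against PDGF, where 10.7% of all 23595 probe sets were called. In NT-3 against PDGF 17 of the 75 were called, where 19.1% of all probe sets were. In EGF against NT-3 21 of the 75 were called, where 20.2% of all probe sets were.

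Other genes of the pathway, outside the symbols above, can be read against the share of all genes called, which was 13% in EGF against PDGF, 21.2% in NT-3 against PDGF and 22.5% in EGF against NT-3, with medians of -0.04, -0.13 and 0.11. Of 23 further extracellular regulators, 13 were tested, and for EGF against PDGF 2 were higher and 1 lower (median -0.02): Bmper, which binds BMPs, by 0.76 ± 0.19 (limma adjusted p = 0.0103), the TGF-beta-activating integrin Itgb8 by 0.59 ± 0.17 (adjusted p = 0.028) and the BMP coreceptor Rgmb by -0.77 ± 0.24 (adjusted p = 0.039). For NT-3 against PDGF 4 of the 13 were lower (median -0.24), where 13.8% of all genes were, among them the BMP antagonist Grem1 at 219 ± 79.6 against 775 ± 201 (-1.60 ± 0.31, adjusted p = 0.00185), with Kcp and Thbs1. For EGF against NT-3 4 of the 13 were higher and 2 lower (median 0.53), where 14.1% and 8.35% of all genes were, among them Crim1 by 2.11, Grem1 by 1.36 and Vwc2 by -2.47.

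Of 19 intracellular regulators 17 were tested, and the corepressor Tgif2 was the only one called in EGF against PDGF, at 2776 ± 203 in EGF and 952 ± 402 in PDGF neurospheres (1.61 ± 0.25, limma adjusted p = 0.000305; median of the list -0.13). For NT-3 against PDGF 2 of the 17 were higher and 4 lower (median -0.26), where 7.43% and 13.8% of all genes were, among them Tab2 by -0.84, the Smad anchor Zfyve9 by -0.95 and the repressor Zeb1 by 0.67. For EGF against NT-3 3 were higher and 1 lower (median 0.02), among them Zfyve9 by 1.06, Tgif2 by 1.71 and the ubiquitin ligase Stub1 by -0.95. Among 7 other ligands 2 were tested, and Inha, the inhibin alpha subunit, was lower in NT-3 neurospheres, at 608 ± 264 against 1910 ± 437 in PDGF neurospheres (-1.62, adjusted p = 0.000467).

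Of 13 usual target genes of the pathway 9 were tested. For EGF against PDGF 2 were higher and 1 lower (median 0.44). Klf10, induced early by TGF-beta, averaged 4081 ± 567.8 in EGF and 2139 ± 642 in PDGF neurospheres (0.96 ± 0.18, limma adjusted p = 0.0012), Bhlhe40 rose by 1.52 ± 0.30 (adjusted p = 0.00207), and Tsc22d1 differed by -0.43 (adjusted p = 0.0172). For NT-3 against PDGF Klf10 alone was called, by 0.76 ± 0.22 (adjusted p = 0.0202; median -0.01). For EGF against NT-3 2 were higher, Bhlhe40 by 1.76 and Msx2 by 1.51, and Tsc22d1 was lower by -0.42 (median 0.20). Gfap, an astrocyte gene in this list and in the astrocyte markers, averaged 930 ± 579 in EGF and 671 ± 614 in PDGF neurospheres and was not called (adjusted p = 0.715).

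The partners of the Id proteins were measured too. Of 12 E proteins and neural bHLH factors 10 were tested, and the E proteins Tcf3, Tcf4 and Tcf12 were called in no comparison. For EGF against PDGF 2 were higher, Hes6 by 0.99 and the Notch target Hes1 by 0.996, and 1 lower, Olig1, at 42887 ± 5094 in EGF and 60702 ± 7614 in PDGF neurospheres (-0.50, limma adjusted p = 0.00399; median of the list 0.06). For NT-3 against PDGF 3 were higher and 2 lower (median 0.18), among them Olig1 by 0.78, Hes1 by 1.25 and Neurod1 by -2.21. For EGF against NT-3 2 were higher and 1 lower (median -0.03), Olig1 by -1.28, Neurod1 by 1.90 and Nhlh1 by 1.22. Olig1 is also an oligodendrocyte progenitor marker, given above in the summed signals.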

How the data were processed

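The deposited values are probe set intensities (signals on a linear scale) made by the authors with MAS5, per the submitters' processing notes, which name no version. The 2%-trimmed mean of every array lay between 1500.2 and 1500.77, so each was scaled to a common level, and that scaling was kept. No pair of arrays was identical (0 pairs). For arrays, their number limits the precision.

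From these deposited intensities, log2 of signal plus a pseudocount (52.0 on MOE430A and 115 on MOE430B, the 10th percentile of the chip) was computed. Probe sets with 1 gene symbol and a signal at or above the array median in at least 3 of the 15 arrays were kept. A gene was represented by 1 probe set, from MOE430A where it had one, otherwise from MOE430B, the brightest on average. A linear model of all 15 samples (limma 3.58.1, R 4.3.3; eBayes with a trend and 12 residual degrees of freedom) gave two-sided tests, with Benjamini-Hochberg adjustment over all 13882 genes and a threshold of 0.05. All conditions share 1 estimate of a gene's spread in this model. The NT-3 samples were less alike (pairwise correlations of 0.825 to 0.852) than the EGF (0.876 to 0.899) or PDGF samples (0.871 to 0.911), so the shared spread may be too small for NT-3. Probe sets were fitted apart, over 23595. The fit was tested on simulated data.

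The genes were those whose symbols match the pathway's names. Their values are given for called genes, Id genes and BMP receptors, and by sample for the up to 8 largest differences in a comparison. At most 3 uncalled genes a role are named, the brightest. In the other lists up to 3 genes a comparison are named, those with the smallest adjusted p. Members and lists were chosen with earlier results of these data known. Promoters are RefSeq's, and 3 of the 4 Id genes were matched. Replicate numbers were checked for pairing. Correlations of same-numbered samples' deviations ran from 0.0165 to 0.110 for EGF and PDGF, -0.0352 to 0.0514 for NT-3 and PDGF, and -0.0215 to 0.0445 for EGF and NT-3, so samples were not treated as paired.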

Additional observations from a re-analysis of the deposited data

Results flagged for a closer look

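In 7 of 96 groups of 6 samples, 1 sample stood apart from the others of its condition by Dixon's criterion, and chance gives about 1 in 20 groups. In EGF neurospheres, Acvr2b was at 228 in replicate 1, against 384 to 479 in the others, Chrdl2 at 87.7 in replicate 2, against 363 to 604, and Smad4 at 5492 in replicate 4, against 8269 to 10480. In PDGF neurospheres, Smad4 was at 13124 in replicate 5, against 10136 to 10952, Inhba at 76.6 in replicate 6, against 306 to 420, and replicate 1 held 86.1 of Bmp1, against 682 to 1157, and 101 of Smad7, against 505 to 947.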

How the results depend on the processing

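The counts of called genes moved with some settings. Without the signal filter, 2 rather than 5 genes were higher in EGF against PDGF and 7 rather than 12 in EGF against NT-3, because a dim MOE430A probe set then stands for several genes. By the same construction, EGF against PDGF became -0.97 for Bmpr2 (adjusted p = 0.246) and -0.61 for Smad3 (adjusted p = 0.507), and EGF against NT-3 became -0.63 for Bmpr1b (adjusted p = 0.432) and 0.98 for Chrdl1 (adjusted p = 0.217). With the mean of a gene's probe sets, 1 gene was lower in EGF against PDGF and 6 were higher in NT-3 against PDGF. That last count of 3 became 1 with only the 2 conditions in the fit and 1 with array weights, which left 2 genes lower in EGF against NT-3. With the brightest probe set on either chip, Smad5 was higher in NT-3 than in PDGF neurospheres by 0.85 (adjusted p = 0.00376). That setting also lost the calls for Smad1 and Ski in both comparisons with NT-3 neurospheres (adjusted p of 0.4793 to 0.8705). Acvr1b was lost with it in NT-3 against PDGF (adjusted p = 0.0519). Leaving out single samples gave 5 to 5 higher and 2 to 3 lower genes in EGF against PDGF, 1 to 4 and 7 to 9 in NT-3 against PDGF, and 9 to 13 and 2 to 6 in EGF against NT-3. The 1 higher gene in NT-3 against PDGF came without NT-3 replicate 3, and 2 or 3 lower genes in EGF against NT-3 without EGF replicate 1 or any NT-3 replicate. In these runs 7 of 8, 8 of 12 and 9 of 17 calls were kept every time. Over every alternative 3 of 8 (Fstl1, Id2 and Id3), 0 of 12 and 1 of 17 (Id3) were kept. The alternatives include the replicate block described below, which has 3 same-numbered pairs in each NT-3 comparison. That leaves few degrees of freedom, so the counts kept there say little about how stable the calls were. In NT-3 against PDGF, Bmp4, Gdf9 and Id4 were lost with that block only. The same held for Gdf9, Id2, Smad4 and Smad5 in EGF against NT-3. Over all genes, array weights gave 1897 calls in NT-3 against PDGF rather than 2943.

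The labels do not say whether equal replicate numbers mark pairs, and samples were not treated as paired. In EGF and PDGF, 5 of 6 correlated best with their own number, and same-numbered samples shared fluidics runs. A fit of these 2 conditions alone called 2028 of all genes without the number and 2039 with it. With the number as a replicate block, 6 genes were lower in EGF against PDGF, Id4 among them (-0.53, adjusted p = 0.0212). In this limma fit 0 were higher and 0 lower in NT-3 against PDGF (2 and 10 at an unadjusted p under 0.05), and 2 were higher and 0 lower in EGF against NT-3 (14 and 5 unadjusted), while 9 and 566 of all genes were called. No other tool was run.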
